A study of Mus musculus with 2 samples.

Results

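Genes of mitochondrial complex I were taken as all genes whose symbol begins with Nduf and that had at least 50 unique molecular identifiers (UMIs, tags that count each captured transcript once) over both libraries, with Ndufa4l2, a paralogue of Ndufa4, left out. Of 47 such symbols the rule took 46, out of 32285 genes in the count matrices and 16376 with as many UMIs. They are 37 subunits of the enzyme, 8 Ndufaf assembly factors and Ndufa4. The E4 library came from 3 female knock-in mice homozygous for human E4 and the E3 library from 3 female mice homozygous for human E3, in both of which the human allele replaced the mouse Apoe gene and was driven by the mouse Apoe promoter. All mice were aged 11 to 12 months, and right hemispheres freed of brainstem and cerebellum were pooled within each genotype, dissociated with warmed enzymes and run as 1 droplet library. With 1 library per genotype there was no replicate, so no p-value was computed, all intervals are 95% intervals of counting error only, and a difference between the genotypes cannot be told apart from a difference between the 2 pools or library preparations.

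Complex I takes electrons from NADH, passes them to ubiquinone and pumps protons out of the mitochondrial matrix, and it is the largest enzyme of the respiratory chain. NADH is oxidised at the tip of its matrix arm (the N module), ubiquinone is reduced where that arm meets the membrane (the Q module), and protons are pumped in the membrane arm. Core subunits, conserved from bacteria, do this chemistry and are encoded partly in the nucleus and partly in mitochondrial DNA, accessory subunits surround them, and assembly factors bind building intermediates but are absent from the finished enzyme. The nuclear members here comprised 30 accessory subunits and 7 core subunits, with the core including Ndufs1, Ndufv1 and Ndufv2 of the N module and Ndufs3, Ndufs7 and Ndufs8 of the Q module. Of the accessory subunits 7 belong to the N module, 2 to the Q module, 9 to the proximal and 12 to the distal part of the membrane arm. Ndufa4 carries a complex I name but is a subunit of complex IV, and it is counted among the 46 genes but not among the subunits.

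Promoter windows from RefSeq on GRCm38.p6, running from 250 bases before to 50 bases after each start, were given for 41 of the 46 genes (1 of them, Ndufb1-ps, through the synonym Ndufb1) in 43 windows. Both strands were searched for the letters of factors long tied to nuclear genes of mitochondria: CGCATGCG for NRF1, CCGGAAG for ETS factors, AAGATGGC for YY1 and TATAAA for the TATA box. The YY1 letters were in 8 windows, or 18.6%, against 2.75% of 32851 windows of all genes and 3.83% of 15622 windows of genes with at least 50 UMIs. In each of the 8 they ran in the direction of the gene, 11 to 39 bases after the start, and in 7 of them they held the annotated start codon. These 8 sites are shown because their place and direction were shared, with the motif in capitals and up to 11 flanking bases on each side, read 5′ to 3′ on the strand of the gene and shorter where the window ends.
Ndufs7 (core, chr10:80249462-80249491, plus strand): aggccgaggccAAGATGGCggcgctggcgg
Ndufs4 (N module, chr13:114388045-114388070, minus strand): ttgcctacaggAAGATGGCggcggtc
Ndufs6 (N module, chr13:73328433-73328460, minus strand): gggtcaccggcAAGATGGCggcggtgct
Ndufa9 (Q module, chr6:126849097-126849126, minus strand): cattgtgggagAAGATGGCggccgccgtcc
Ndufa3 (proximal arm, chr7:3617384-3617413, plus strand): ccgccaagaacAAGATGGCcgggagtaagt
Ndufc1 (proximal arm, chr3:51408915-51408944, minus strand): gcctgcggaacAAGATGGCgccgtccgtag
Ndufb8 (distal arm, chr19:44555393-44555415, minus strand): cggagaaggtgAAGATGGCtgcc
Ndufaf8 (assembly factor, chr11:120098933-120098962, plus strand): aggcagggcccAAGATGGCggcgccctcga

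The NRF1 palindrome was in 4 windows, or 9.3%, against 1.87% of all windows and 3.3% of those of genes with at least 50 UMIs, and it is shown because it fell in promoters of 2 subunits and 2 assembly factors.
Ndufa11 (proximal arm, chr17:56717692-56717721, plus strand, 59 bases before the start): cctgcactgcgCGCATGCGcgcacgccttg
Ndufa8 (proximal arm, chr2:36049329-36049358, minus strand, 9 bases before the start): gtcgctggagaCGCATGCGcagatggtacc
Ndufaf4 (assembly factor, chr4:24897960-24897989, plus strand, 112 bases before the start): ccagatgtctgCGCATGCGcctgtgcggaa
Ndufaf5 (assembly factor, chr2:140170652-140170681, plus strand, 18 bases after the start): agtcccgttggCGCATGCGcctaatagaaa
The ETS letters were in 6 windows (14%, against 8.86% of all windows and 15.2% of those of genes with at least 50 UMIs) and the TATA letters in 5 (11.6%, against 13.6% and 7.67%). For 24 genes none of NRF1, ETS and YY1 had a match in these letters. A match describes the letters of the window and was not tested as a binding site.

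After the study's filter on cells, 13528 E4 and 11288 E3 cells remained, with medians of 4102 and 3803.5 UMIs per cell. These are more cells than the study's final set, so the cells and classes described here are not those of the study. Clusters were named from marker genes and are called by the name of a cell type with "-like". Levels were described in the 12 classes that had 50 cells or more from both genotypes, and the libraries were compared in the 6 with 200 or more, namely astrocyte-like (3594 E4 and 3037 E3 cells), microglia-like (4289 and 3370), endothelial-like (1586 and 1080), oligodendrocyte-like (953 and 793), choroid plexus-like (419 and 406) and neuroprogenitor-like cells (365 and 329). No cluster took the name of neurons, and the labels of the samples describe the cells as non-neuronal. The T cell-like class (70 and 62 cells) had 7 of its 8 markers but was led by Ccl5 and genes of MHC class II. A total of 46 barcodes occurred in both libraries, and leaving out those cells changed no direction reported below for the summed genes.

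Each transcript gives 1 tag near its 3′ end, so a level is the UMIs of a gene per 1000000 UMIs of the cells (CPM), was not divided by length and can be set side by side between genes, though capture may differ from gene to gene. Over all cells, accessory subunits stood above core subunits, and both stood above the assembly factors. The median level was 231 CPM in E4 and 253 CPM in E3 for the 30 accessory subunits, 119 and 118 CPM for the 7 core subunits, and 43.2 and 43.4 CPM for the 8 assembly factors. All 7 core subunits lay below the accessory median in both libraries. The most abundant members were Ndufa4 (674 CPM in E4 and 742 CPM in E3), Ndufa13 (498 and 573), which is also known as GRIM-19, Ndufc2 (367 and 406) and Ndufb9 (363 and 401). Ndufa13 overlaps Yjefn3 on the same strand, which makes its level uncertain. A further limit applies to 16 members that overlap a gene on the opposite strand, since the sources used here do not give how strand was used in counting.

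Of the core subunits described singly, Ndufs7, which lines the ubiquinone pocket, had the highest level over all cells, at 201 CPM in E4 and 208 CPM in E3. Ndufv2, an iron-sulphur protein of the N module, followed with 160.5 CPM in E4 and 172.0 CPM in E3. Ndufs8 (123 and 122 CPM) and Ndufs3 (108 and 118 CPM), both of the Q module, came next. At the low end were the partners at which NADH oxidation starts, Ndufv1, which binds flavin and NADH, with 65.7 and 66.3 CPM, and Ndufs1, the largest core protein of the matrix arm, with 57.7 and 60.0 CPM. Among assembly factors the level ran between 9.81 CPM in E4 and 9.51 CPM in E3 for Ndufaf5 and 79.9 and 88.2 CPM for Ndufaf8, and these partners act together on Ndufs7 in human cells.

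Levels of the subunits differed widely between classes, and choroid plexus-like cells, the epithelium that secretes cerebrospinal fluid, stood far above all others. Their 37 subunits summed to 20875 CPM (20762 to 20989) in E4 and 22229 CPM (22101 to 22358) in E3. Astrocyte-like cells had 9293 CPM in E4 and 10050 CPM in E3, mural-like cells 9300 and 9049 CPM, meningeal-like cells 8604 and 9294 CPM, and neuroprogenitor-like cells 8291 and 9299 CPM. Lower sums were found in ependymal-like (7838 and 8728 CPM), oligodendrocyte-like (7586 and 8257 CPM), endothelial-like (6104 and 6688 CPM), macrophage-like (6027 and 6539 CPM) and T cell-like cells (5634 and 5706 CPM). Microglia-like cells held 4757 CPM in E4 and 5111 CPM in E3, the lowest sum of any class but the erythroid-like one in both libraries. Neighbours in this order were not all separated, since the counting intervals of astrocyte-like and mural-like cells overlapped in E4, as did those of mural-like, meningeal-like and neuroprogenitor-like cells in E3 and those of endothelial-like and macrophage-like cells in both. Erythroid-like cells had 801 CPM in E4 and 589 CPM in E3, and there haemoglobin and rRNA-overlapping genes took 870817 and 916856 CPM.

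**Figure D1:**
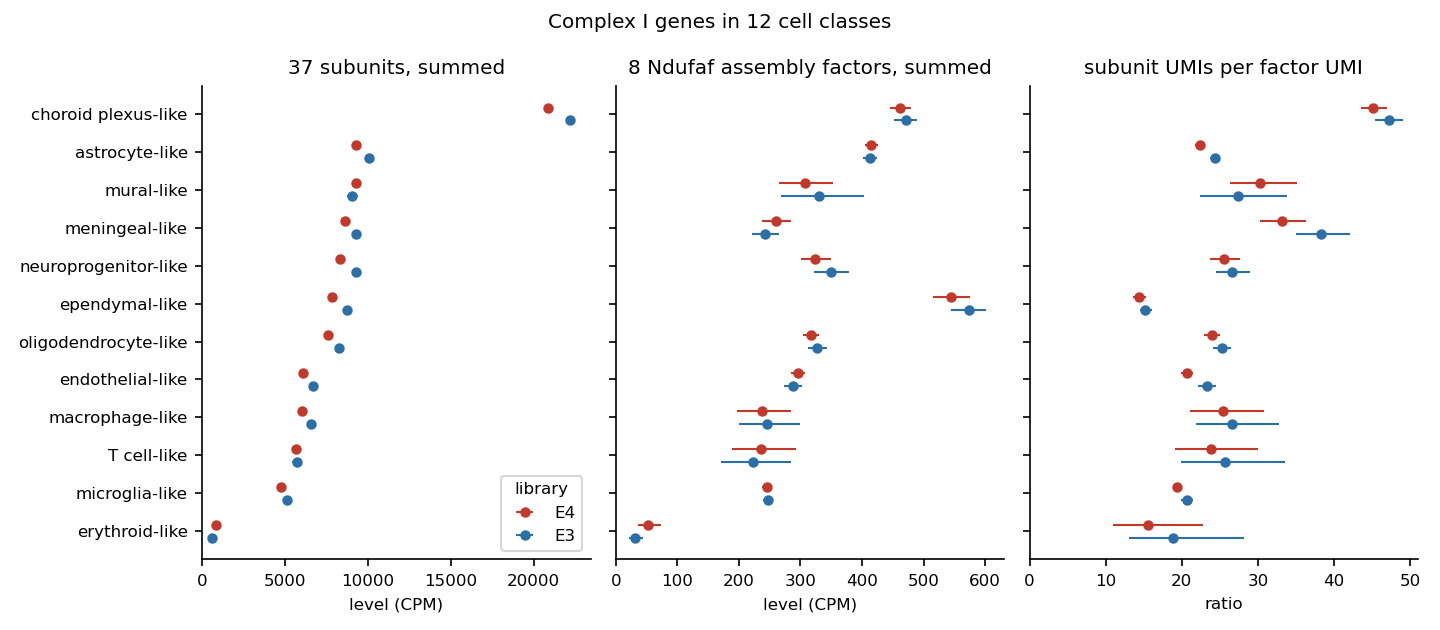
Summed level of the 37 subunits (left) and of the 8 Ndufaf assembly factors (middle) in CPM, and subunit UMIs per factor UMI (right), in 12 cell classes, with E4 in red above E3 in blue and bars for 95% counting intervals. Choroid plexus-like cells lie at 20875 and 22229 CPM for the subunits, but ependymal-like cells are highest for the factors, at 545 and 573 CPM.

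Within the choroid plexus-like class the rise above other cells covered nearly all subunits. Counting a gene where its level in the class was at least 1.5-fold above the median of the other 11 classes in both libraries, 34 of 37 subunits were called, including all 7 core subunits, against 19% of 16277 genes. The exceptions were Ndufa9, Ndufa10 and Ndufb4. The median subunit was 2.74-fold above the other classes in E4 and 2.71-fold in E3, whereas the median of all genes was 0.663-fold and 0.705-fold. Choroid plexus-like cells were the highest class for 33 of 37 subunits in both libraries. These cells also had deeper libraries, with medians of 11398 UMIs in E4 and 9713 UMIs in E3. In an alternative, cells with at least 1000 UMIs were thinned to 1000 UMIs and shallower cells were left out. The summed subunits then stood 2.98-fold above the other classes in E4 and 2.95-fold in E3, against 2.75-fold and 2.69-fold in all cells unthinned.

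The span among the subunits was wide. Ndufa1 (ENSMUSG00000016427, X:37187588-37191163, minus strand), a single-pass protein of the proximal membrane arm, reached 992 CPM in E4 and 1134 CPM in E3, which was 8.0-fold and 7.35-fold above the median of the other classes. Meningeal-like cells came next for this gene with only 225 CPM in E4 and 242 CPM in E3, and astrocyte-like cells were near the bottom with 98.6 and 120 CPM. Ndufa11, another proximal arm subunit, stood at 1180 and 1242 CPM (6.21-fold and 5.60-fold), and Ndufv3, a small subunit of the N module, at 830 and 929 CPM (5.90-fold and 5.58-fold). The complex IV subunit Ndufa4 was among them, with 2525 CPM in E4 and 2609 CPM in E3 (6.15-fold and 5.84-fold). Ndufa12, the N module paralogue of Ndufaf2, and Ndufb6 of the distal arm were 4.87-fold and 4.32-fold above in E4, and 4.44-fold and 4.62-fold in E3.

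Some subunits had a smaller excess of their highest class over the median class, but they were not level across classes. Ndufb4, of the distal membrane arm, was 1.08-fold above the median of the other classes in choroid plexus-like cells of E4 and 1.04-fold in those of E3. The highest class of Ndufb4 was meningeal-like, with 358 and 382 CPM. Erythroid-like cells aside, its lowest levels were 143 CPM in E4 (T cell-like) and 163 CPM in E3 (microglia-like). Ndufa9, a Q module protein of the short-chain dehydrogenase family, had 89.8 CPM in E4 and 93.9 CPM in E3 in choroid plexus-like cells, against 77.8 and 76.2 CPM in microglia-like cells. Ndufa10, which resembles nucleoside kinases, had 156 CPM in E4 and 145 CPM in E3 in choroid plexus-like and 148 and 147 CPM in astrocyte-like cells, with overlapping intervals in both libraries. Ndufs7 was 1.84-fold above the other classes in choroid plexus-like cells of E4 and 1.60-fold in those of E3, and Ndufs1 was the only core subunit with its highest level in astrocyte-like cells in both libraries, at 85.2 CPM (80.5 to 90.1) in E4 and 92.0 CPM (86.8 to 97.4) in E3. In choroid plexus-like cells Ndufs1 had 74.3 CPM (67.7 to 81.4) in E4 and 73.6 CPM (66.4 to 81.4) in E3, so that the intervals of these classes overlapped in E4 only.

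**Figure D2:**
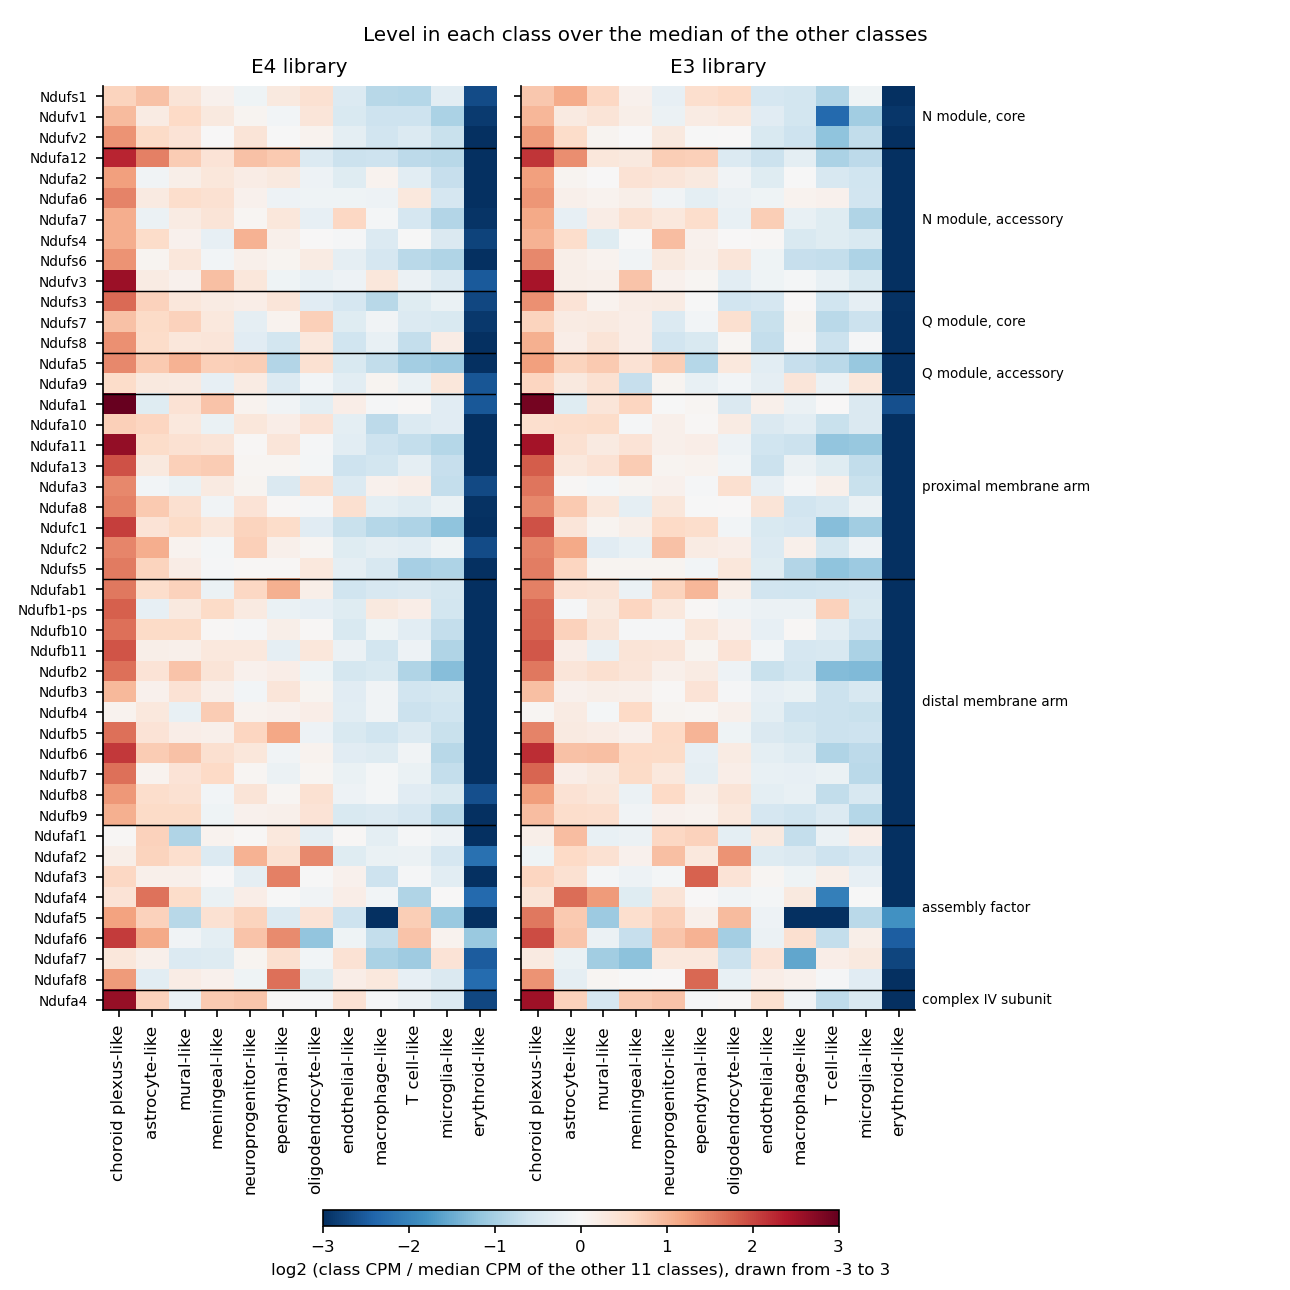
Each square gives the log2 of the level of a gene (rows, grouped by their place in the enzyme) in a class (columns) over its median in the other 11 classes, in the E4 library (left) and the E3 library (right), with colours limited to -3 and 3. The choroid plexus-like column is the reddest, with Ndufa1 at 8.0-fold in E4 and 7.35-fold in E3, while the highest classes of the assembly factors are scattered.

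Microglia-like cells stood at the other end. Of 37 subunits, 20 were at least 1.5-fold below the median of the other classes in both libraries, against 13.8% of all genes, and the median subunit was at 0.627-fold in E4 and 0.649-fold in E3, whereas the median gene was 1.18-fold and 1.20-fold above. Only 2 of the 7 core subunits were among the 20, and Ndufs8, with 112 CPM in E4 and 113 CPM in E3, was near the middle of the classes (1.17-fold and 0.974-fold). The gap was largest in both libraries for Ndufb2, of the distal arm, at 77.7 and 89.8 CPM (0.412-fold and 0.399-fold). Ndufc1, of the proximal arm, had 124 and 139 CPM (0.431-fold and 0.482-fold). No subunit was 1.5-fold above in this class in both libraries, against 28.6% of all genes. The same was true of macrophage-like, T cell-like and oligodendrocyte-like cells, where 18.6%, 15.1% and 22% of all genes were above. In T cell-like cells 11 subunits were 1.5-fold below in both libraries, against 23.9% of all genes. Erythroid-like cells, whose RNA is nearly all haemoglobin, had all 46 genes below by this rule, but so did 81.1% of all genes.

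Astrocyte-like cells had 7 subunits 1.5-fold above the other classes in both libraries (Ndufa12, Ndufa5, Ndufa8, Ndufb6, Ndufc2, Ndufs1 and Ndufs5), which was a smaller share than the 37% of all genes called in these cells. Ndufa12 had 398 CPM in E4 and 441 CPM in E3, and Ndufc2, which anchors the proximal arm, 553 and 592 CPM. In ependymal-like cells, which carry motile cilia, the 3 subunits called were Ndufa12, Ndufab1 and Ndufb5, where 36.5% of all genes were called. Ndufab1 is the acyl carrier protein of mitochondria as well as a subunit, and it stood at 363 CPM in E4 and 374 CPM in E3.

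Assembly factors shared the pattern of the subunits only in part. Summed over 8 genes they were highest in ependymal-like cells, at 545 CPM (515 to 575) in E4 and 573 CPM (545 to 602) in E3, followed by choroid plexus-like cells with 462 and 471 CPM and astrocyte-like cells with 415 and 413 CPM. The other classes, erythroid-like cells aside, lay between 236 CPM (T cell-like) and 324 CPM (neuroprogenitor-like) in E4 and between 223 CPM (T cell-like) and 349 CPM (neuroprogenitor-like) in E3. The ependymal-like sum rested mostly on Ndufaf8 (220 and 248 CPM) and Ndufaf3 (124 and 128 CPM). In that class 3 of 8 factors met the 1.5-fold rule, against 36.5% of all genes. Its median factor was 1.38-fold above the other classes in E4 and 1.44-fold in E3, and its median gene 1.30-fold and 1.40-fold. For each factor UMI there were 45.2 subunit UMIs (43.5 to 46.9) in choroid plexus-like cells of E4 and 47.2 (45.3 to 49.1) in those of E3. Ependymal-like cells had 14.4 (13.6 to 15.2) in E4 and 15.2 (14.5 to 16.0) in E3, the lowest ratio of all 12 classes. Between these ends were meningeal-like (33.1 and 38.3), mural-like (30.3 and 27.4), astrocyte-like (22.4 and 24.4), endothelial-like (20.7 and 23.3) and microglia-like cells (19.4 and 20.7). The median factor was 1.44-fold above the other classes in choroid plexus-like cells of E4 and 1.43-fold in those of E3, where the median gene was at 0.663-fold and 0.705-fold. There 4 of 8 factors (Ndufaf3, Ndufaf5, Ndufaf6 and Ndufaf8) met the 1.5-fold rule, against 19% of all genes. The factors thus also rose in this class, by less than the median subunit (2.74-fold and 2.71-fold).

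Individual factors had their own highest classes. Ndufaf4 (ENSMUSG00000028261, 4:24898083-24905001, plus strand), which acts with Ndufaf3 on the early Q module in human cells, reached 145 CPM (139 to 152) in E4 and 137 CPM (131 to 144) in E3 in astrocyte-like cells, its highest class. Mural-like cells followed with 68.5 and 106 CPM, and the intervals of these classes overlapped in E3, where the mural-like count was 31 UMIs. Its partner Ndufaf3 was highest in ependymal-like cells instead, with 124 CPM in E4 and 128 CPM in E3, which was 2.86-fold and 3.39-fold above the median of the other classes. Ndufaf8 followed the same class, with 220 CPM in E4 and 248 CPM in E3 (3.13-fold and 3.29-fold), and choroid plexus-like cells were next with 170 and 192 CPM.

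Ndufaf2, which binds late intermediates in human cells, was highest in oligodendrocyte-like cells, at 106 CPM (98.8 to 115) in E4 and 113 CPM (105 to 122) in E3, and second in neuroprogenitor-like cells at 81.3 and 83.3 CPM. Ndufaf6, which takes part in early assembly, was highest in choroid plexus-like cells, with 40.2 CPM in E4 and 39.8 CPM in E3 (4.30-fold and 3.86-fold), and lowest, erythroid-like cells aside, in oligodendrocyte-like cells, with 4.43 and 5.72 CPM. These low levels rest on 30 UMIs in E4 and 32 UMIs in E3. Ndufaf1, a member of the complex that assembles the membrane arm, had its highest level, 27.1 CPM in E4 and 27.0 CPM in E3, in the astrocyte-like class. Ndufaf7, a methyltransferase needed for assembly of the enzyme in human cells, had the smallest excess of its highest class over the median class of all 46 genes, 1.31-fold in E4 and 1.14-fold in E3 above medians of 35.2 and 42.4 CPM. Ndufaf5, a hydroxylase that modifies Ndufs7 in human cells, had 19.3 CPM in E4 and 19.5 CPM in E3 in choroid plexus-like cells. Macrophage-like cells had 0 UMIs of it in both libraries, which allows up to 7.50 CPM in E4 and 8.90 CPM in E3 and so overlaps the levels of several other classes.

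Across the 11 classes other than erythroid-like in both libraries (22 points, which share library, depth and normalization), the log2 level of a subunit followed the sum of the other subunits with a median Pearson r of 0.878, between 0.390 for Ndufa9 and 0.990 for Ndufa11. For the 8 factors the median r was 0.387, between 0.156 for Ndufaf7 and 0.623 for Ndufaf6, and over 7323 genes with a mean of at least 20 CPM the median was -0.17. Outside the 46 genes, the 10 whose level was most like the subunit sum were Uqcr10 (0.983), Uqcr11 (0.971) and Uqcrq (0.953) of complex III, Cox6c (0.965) and Cox5b (0.961) of complex IV, and Atp5k (0.979), Atp5g3 (0.970), Atp5h (0.948), Atp5md (0.939) and Atp5b (0.939) of ATP synthase. All 10 belong to other complexes of oxidative phosphorylation. Choroid plexus-like cells are the farthest points in this measure.

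Over all cells, most complex I genes were slightly lower in the E4 library than in the E3 library. Of 46 genes 38 were lower, against 41.1% of 16277 genes, and 23 were at least 1.1-fold lower, against 19.5%. None was at least 1.1-fold higher, against 28.3% of all genes. The median log2 ratio of E4 to E3 was -0.14 for the 37 subunits and 0.04 for all genes. Accessory subunits lay lowest, with 27 of 30 lower and a median of -0.16, while 5 of 7 core subunits and 5 of 8 assembly factors were lower, with medians of -0.04 and -0.02. Intervals lay below 0 for 32 genes, against 15.9% of all genes, and above 0 for 1, Ndufaf4, against 28.8%, and since an interval narrows with the count these shares depend on level as well as on the difference.

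By place in the enzyme, all 7 accessory subunits of the N module were at least 1.1-fold lower (median -0.19), all 12 of the distal membrane arm were lower (median -0.14, 6 of them by 1.1-fold), and 7 of 9 of the proximal arm were lower (median -0.16). The lowest ratio was that of Ndufa1, with 196 CPM in E4 and 232 CPM in E3 (log2 ratio -0.24, -0.28 to -0.21). Ndufb2 of the distal arm had 191 and 225 CPM (-0.24, -0.28 to -0.21), and Ndufc1 of the proximal arm 286 and 338 CPM (-0.24, -0.27 to -0.21). Ndufa5 of the Q module had 202 CPM in E4 and 238 CPM in E3 (-0.23, -0.27 to -0.20), and Ndufa2, an N module protein with a thioredoxin fold, 340 and 398 CPM (-0.23, -0.25 to -0.20). These 5 accessory subunits come from the N module, the Q module and both parts of the membrane arm. At the top were Ndufaf4, with 71.3 CPM in E4 and 66.8 CPM in E3 (0.09, 0.03 to 0.16), Ndufa9 (0.06, -0.01 to 0.12), Ndufaf5 (0.05, -0.12 to 0.21), Ndufa10 (0.02, -0.02 to 0.07) and Ndufa3 (0.02, -0.02 to 0.06), and of these only the interval of Ndufaf4 left out 0.

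**Figure D3:**
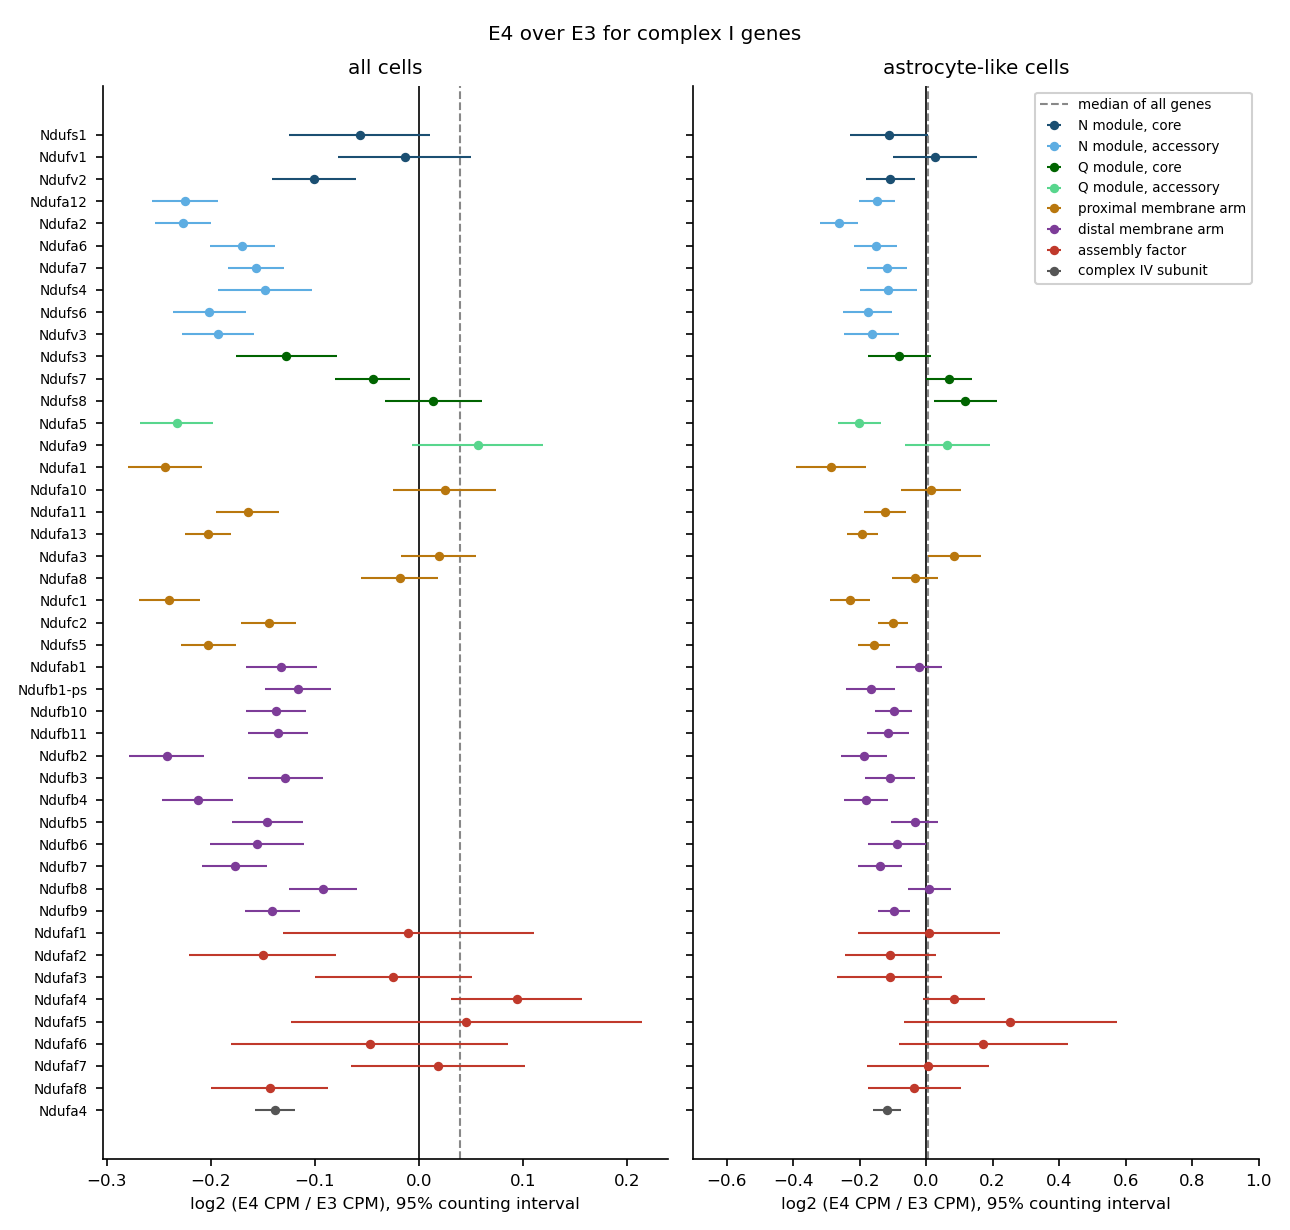
Log2 ratio of E4 to E3 for the genes described singly, over all cells (left) and in astrocyte-like cells (right), with 95% counting intervals, colours for the place in the enzyme and a dashed line for the median of all genes (0.04 and 0.01). The accessory subunits of the N module all lie between -0.23 and -0.15 over all cells, while the intervals of the core subunits Ndufs1, Ndufv1 and Ndufs8 hold 0.

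Core subunits varied around a smaller difference. Ndufs3 (log2 ratio -0.13, -0.18 to -0.08) and Ndufv2 (-0.10, -0.14 to -0.06) were lower in the E4 library beyond counting error, as was Ndufs7 (-0.04, -0.08 to -0.01), whose sign turned when cells were thinned to 1000 UMIs (0.027). Intervals of Ndufs1 (-0.06, -0.12 to 0.01), Ndufv1 (-0.01, -0.08 to 0.05) and Ndufs8 (0.01, -0.03 to 0.06) held 0. Of the factors, Ndufaf2 (-0.15, -0.22 to -0.08) and Ndufaf8 (-0.14, -0.20 to -0.09) were lower by as much as the median subunit, but Ndufaf8 was at 0.028 in cells thinned to 1000 UMIs. Ndufaf1 (-0.01, -0.13 to 0.11), Ndufaf3 (-0.02, -0.10 to 0.05), Ndufaf6 (-0.05, -0.18 to 0.09) and Ndufaf7 (0.02, -0.07 to 0.10) had intervals that held 0. All these ratios over all cells also take in the shares of the classes, which differed between the libraries. Within the 6 compared classes the interval lay below 0 in 2 for Ndufs3, in 1 for Ndufv2 and in 0 for Ndufs7.

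Astrocyte-like cells gave a count nearer to that of all genes. Of 46 genes 33 were lower in E4, against 48.4% of 12243 genes measured in these cells, and 14 were at least 1.1-fold lower, against 21.2%. All 14 were accessory subunits. The summed accessory subunits had a log2 ratio of -0.13, whereas the intervals of the core sum (-0.00, -0.03 to 0.03, with 1037 CPM in E4 and 1038 CPM in E3) and of the factor sum (0.01, -0.04 to 0.06, with 415 and 413 CPM) held 0. Ndufa1 was again lowest, at 98.6 CPM in E4 and 120 CPM in E3 (-0.28, -0.39 to -0.18), followed by Ndufa2 with 335 and 401 CPM (-0.26, -0.32 to -0.20), Ndufc1 with 303 and 355 CPM (-0.23, -0.29 to -0.17), Ndufa5 with 268 and 308 CPM (-0.20, -0.27 to -0.14) and Ndufa13 with 518 and 592 CPM (-0.19, -0.24 to -0.15). Of these 5, 4 were also among the 5 lowest over all cells. Ndufs8, an iron-sulphur protein that leads electrons toward ubiquinone, was higher, with 140 CPM in E4 and 129 CPM in E3 (0.12, 0.02 to 0.21), as was Ndufa3 with 193 and 182 CPM (0.09, 0.01 to 0.17). Ndufaf5 (0.25, -0.07 to 0.57), Ndufaf6 (0.17, -0.08 to 0.43) and Ndufaf4 (0.08, -0.01 to 0.18) completed the upper end with intervals that held 0.

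The other classes gave similar counts. Lower in E4 were 38 of 46 genes in microglia-like cells, against 36.7% of all genes measured there, 35 of 46 in endothelial-like cells (36.8%), 37 of 46 in oligodendrocyte-like cells (40.9%), 36 of 45 in neuroprogenitor-like cells (39.7%) and 36 of 46 in choroid plexus-like cells (41.8%). In all 6 compared classes the accessory sum was lower in E4, and the interval of its ratio lay below that of the core sum. It lay below that of the factor sum in astrocyte-like, microglia-like and endothelial-like cells, and overlapped it in oligodendrocyte-like, neuroprogenitor-like and choroid plexus-like cells. The log2 ratios of the core, accessory and factor sums were -0.03, -0.11 and -0.01 in microglia-like cells, 0.01, -0.15 and 0.04 in endothelial-like cells, -0.00, -0.14 and -0.05 in oligodendrocyte-like cells, -0.02, -0.18 and -0.11 in neuroprogenitor-like cells, and -0.03, -0.10 and -0.03 in choroid plexus-like cells. The choroid plexus-like difference varied with depth. In 5 groups from shallowest to deepest, the summed subunits there had log2 ratios of -0.29, -0.16, -0.15, 0.02 (-0.005 to 0.037) and 0.08 (0.057 to 0.095). The deepest group held 100 E4 and 65 E3 cells. Mural-like cells, with 203 E4 and 99 E3 cells, had the summed subunits at 9300 CPM in E4 and 9049 CPM in E3, and there the interval of the log2 ratio held 0. This class leaves out an unnamed cluster led by Higd1b and Abcc9, which had all 11 mural and all 12 endothelial markers. Its 144 E4 and 100 E3 cells had 6003 CPM in E4 and 6888 CPM in E3 (log2 ratio -0.20, -0.24 to -0.16).

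**Figure D4:**
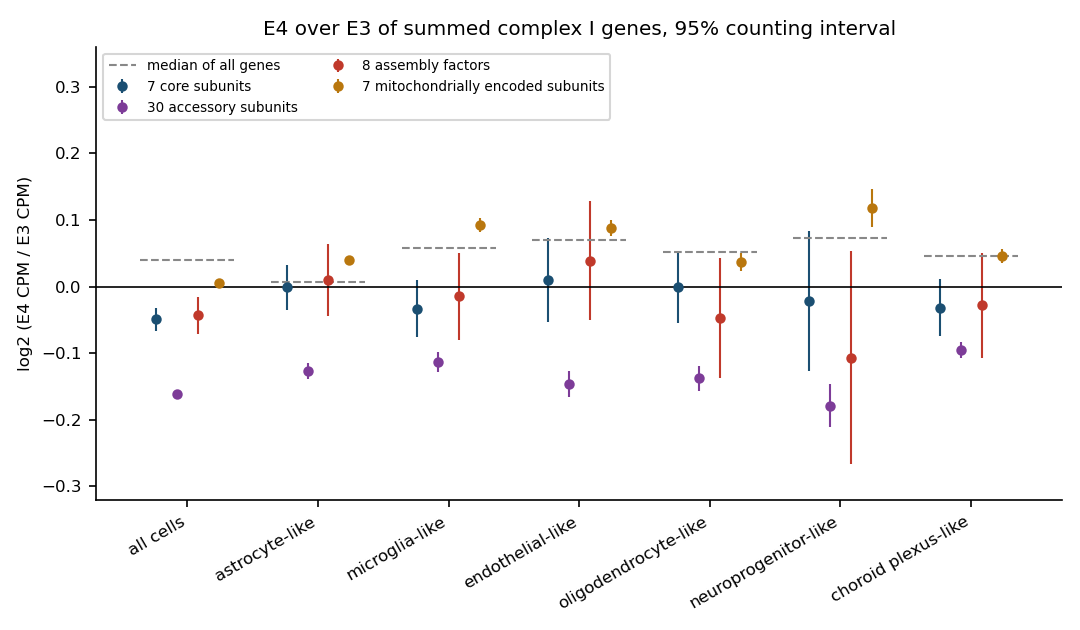
Log2 ratio of E4 to E3 of the summed core subunits, accessory subunits, assembly factors and mitochondrially encoded subunits of complex I over all cells and in the 6 compared classes, with 95% counting intervals and dashes for the median of all genes. Accessory subunits lie between -0.18 and -0.10 in every row, and the core subunits lie between -0.05 and 0.01.

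Of 45 genes measured in all 6 classes, 26 were lower in E4 in each of them, against 6.2% of 6624 genes. They were 23 subunits, Ndufaf2, Ndufaf8 and Ndufa4. Ndufa1, for example, had log2 ratios of -0.28 in astrocyte-like, -0.21 in microglia-like, -0.27 in endothelial-like, -0.15 in oligodendrocyte-like, -0.20 in neuroprogenitor-like and -0.19 in choroid plexus-like cells. Ndufa10 was the only gene that was higher in all 6, by 0.01 to 0.18, with an interval above 0 in microglia-like (0.12, 0.00 to 0.23) and endothelial-like cells (0.18, 0.02 to 0.35). Single classes also had their own extremes. Ndufaf4 had 54.1 CPM in E4 and 41.9 CPM in E3 in endothelial-like cells (0.37, 0.14 to 0.60), and Ndufs3 had 94.1 and 123 CPM in neuroprogenitor-like cells (-0.39, -0.68 to -0.11, against 0.087 after thinning). Ndufa3 was higher in E4 in microglia-like (0.12, 0.03 to 0.21) and oligodendrocyte-like cells (0.14, 0.04 to 0.24) and had -0.03 (-0.11 to 0.04) in choroid plexus-like cells.

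Subunits encoded in mitochondrial DNA did not go the way of the nuclear ones. The 7 mt-Nd genes summed to a log2 ratio of 0.01 (0.00 to 0.01) over all cells and 0.04 (0.03 to 0.05) in astrocyte-like cells, with single genes on both sides, as in mt-Nd1 with 3497 CPM in E4 and 3150 CPM in E3 (0.15, 0.14 to 0.16) and mt-Nd4l with 494 and 597 CPM (-0.27, -0.30 to -0.25). Nuclear genes of complex III (-0.15), complex IV (-0.15) and ATP synthase (-0.14) had summed ratios over all cells close to that of the complex I subunits (-0.15, -0.16 to -0.15), and complex II, which pumps no protons, had -0.01 (-0.04 to 0.01). Assembly factors of complex I with other names (13 genes, such as Ecsit and Acad9) had a summed ratio of -0.04, like the Ndufaf genes. Of the 13, 6 were lower, against 41.1% of all genes. Of 10 regulators of mitochondrial genes 8 were higher in E4, and their sum had a ratio of 0.08. Most genes were higher in E4 over all cells, with 41.1% lower, so this count is not far from that of all genes.

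Several other measures moved with the library. Microglia-like cells, lowest in summed subunits but for the erythroid-like class, gave 18967401 of 67584777 UMIs in E4 and 12901695 of 53968601 UMIs in E3. The median share of mitochondrial UMIs per cell was higher in E4 in all 12 classes, for example 9.36% in E4 and 8.68% in E3 in astrocyte-like and 7.86% and 6.25% in choroid plexus-like cells. Haemoglobin and rRNA-overlapping genes together took 21651 CPM in E4 and 46301 CPM in E3, 18 immediate-early and stress genes had 15 higher in E4 with a summed log2 ratio of 0.29 over all cells and -0.03 in astrocyte-like cells, and 89 cytosolic ribosomal protein genes measured in astrocyte-like cells had 82 lower in E4, with a summed ratio of -0.18. Transcript length, taken as the median over the annotated protein-coding transcripts of a gene, also differed between the groups of genes. Medians were 629 bases for accessory subunits, 977 for core subunits and 1124 for assembly factors. This length need not be that of the transcript counted, since Ndufs1, the largest core protein of the matrix arm, had 651 bases and Ndufb2 2413 bases. Of 33 members with transcripts under 1000 bases 31 were lower in E4 over all cells, against 51.7% of 1558 genes of that length with at least 20 CPM, and of 12 longer members 6 were lower, against 27.9% of 5534 genes. In astrocyte-like cells these counts were 29 of 33 (against 59.9%) and 3 of 12 (against 43.6%). Lower ratios thus went with a short length by this measure among the members and among all genes. The part of length, stress genes, the mitochondrial share and the rRNA and haemoglobin share in the difference was not tested.

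Within finer groups of cells the summed subunits were lower in E4 in 29 of 35 clusters, 13 of 15 astrocyte-like sub-clusters and 26 of 30 groups made by splitting each compared class by depth into 5 equal groups. The factors were lower in 18, 7 and 17 of them. Opposite cases beyond counting error were a cluster of shallow microglia-like cells led by Tyrobp and Cd52 (6704 CPM in E4 and 6177 CPM in E3), an astrocyte-like sub-cluster led by Gm26917 (4553 and 3664 CPM), the shallowest group of the microglia-like cells (5098 and 4880 CPM), the deepest group of the choroid plexus-like cells (17678 and 16771 CPM) and the erythroid-like cluster. These groups were singled out after their values were seen.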

How the data were processed

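Single-cell suspensions of 1 pool of 3 mice per genotype were made into 10x Genomics 3′ droplet libraries. The authors deposited counts of UMIs per gene and barcode, made with Cell Ranger (6.1.1 for E4 and 6.1.2 for E3, on mm10 per the submitters' processing notes). The gene annotation is not given in the sources used here. All 46 member genes matched GENCODE vM21 by identifier, and the other genes were not checked in this way. The deposited matrices held 13802 barcodes and 71625170 UMIs for E4, and 11485 barcodes and 56415229 UMIs for E3. Barcodes were kept where they had 50 to 50000 UMIs, of which no more than 30% were mitochondrial.

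Counts were scaled to 10000 UMIs per cell and log-transformed, and 2000 variable genes, 20 principal components, 15 neighbours and Leiden clustering at resolution 1 were used (Python 3.11.15, numpy 2.4.6, scipy 1.17.1, pandas 2.3.3, scikit-learn 1.9.0, igraph 0.11.9, leidenalg 0.10.2). A cluster was named where at least 3 markers of a cell type were 2-fold above the other cells and had a UMI in 20% of its cells. Clusters of mixed markers under 250 cells, astrocyte-like sub-clusters with 2 or more markers of another class, and shallow clusters none of whose markers was among the 10 genes that led them did not enter the classes. Also left out were clusters whose 10 leading genes held more markers of another cell type than of the best-scoring type. Among these were a cluster led by Higd1b and Abcc9 and another led by Gpr17. Cells of a class were summed per library. A rebuilt doublet score marked 11.3% of E4 and 10.4% of E3 cells, which were removed in an alternative only.

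Levels have exact Poisson intervals and log2 ratios of E4 to E3 exact binomial intervals, at 95%. A ratio was computed for genes with at least 50 UMIs over both libraries in the cells compared. UMIs within a library come from 3 pooled mice that the files do not separate, so intervals cover counting error only. Named with full values were the core subunits (1 gene is not reported here on its own but stays in sums and counts), the 8 factors, Ndufa4, the 4 most abundant members, the 5 highest and 5 lowest ratios of E4 to E3 over all cells and in astrocyte-like cells (at least 200 UMIs), the 5 largest and 5 smallest ratios of the highest to the median class, and the 10 other genes most alike by Pearson r. Further members named were chosen after their values were seen. The members and the gene lists were chosen with earlier results of these data known. The log2 ratios and the counting intervals were tested on simulated Poisson counts with known ratios. No other step was tested on simulated data. Alternatives were the total, the filter on cells, thinning, a mean over cells, doublets, the resolution, the minimum count, the sub-clusters, equal weights for the classes and, chosen after seeing the data, removal of the 88 cells whose barcodes occurred in both libraries.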

Additional observations from a re-analysis of the deposited data

How the results depend on the processing

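Across the 10 other settings the summed subunits were lower in E4 over all cells, with log2 ratios from -0.19 to -0.12, and across 9 in astrocyte-like cells, from -0.14 to -0.10. Genes lower in E4 numbered 33 to 43 over all cells, 31 to 38 in astrocyte-like cells, and at least 29 in each other class. Choroid plexus-like cells had 33 to 36 subunits 1.5-fold above the other classes and microglia-like cells 18 to 21 below, over 7 settings. With mitochondrial, haemoglobin and rRNA-overlapping genes out of the total, the ratio of the subunits was -0.19 over all cells and -0.14 in astrocyte-like cells, that of the factors -0.079, and the choroid plexus-like excess of the subunits 2.80-fold in E4 and 2.72-fold in E3. With at least 1000 UMIs and at most 15% mitochondrial UMIs per cell, the values were -0.16 over all cells, 2.81-fold and 2.81-fold. As means over cells they were -0.12 over all cells, -0.10 in astrocyte-like cells, 2.93-fold and 2.98-fold, with 24.3 (E4) and 26.2 (E3) subunit UMIs per factor UMI over all cells and 16.1 in E3 ependymal-like cells. Without marked doublets they were -0.13 over all cells, 2.85-fold and 2.97-fold, with 25.2 subunit UMIs per factor UMI over all cells of E4 and 49.2 in choroid plexus-like cells of E3. At resolution 2 the astrocyte-like ratio was -0.13, and with classes weighted alike the ratio over all cells was -0.12.

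Thinning to 1000 UMIs was done on cells with at least that many, and shallower cells were left out. Thinning gave -0.13 over all cells, -0.10 in astrocyte-like cells, and excesses of 2.98-fold in E4 and 2.95-fold in E3. There were 22.8 (E4) and 25.1 (E3) subunit UMIs per factor UMI over all cells and 44.9 in E3 choroid plexus-like cells. This setting turned the sign of the factor sum over all cells (0.0033), of Ndufs7 (0.027) and Ndufaf8 (0.028) over all cells, of Ndufb3 in microglia-like cells (0.080), of Ndufs4 (0.058) and Ndufb11 (0.060) in endothelial-like cells, of Ndufs3 (0.087) and Ndufa11 (0.13) in neuroprogenitor-like cells, and of Ndufaf8 (0.083) and Ndufa6 (0.012) in choroid plexus-like cells, where Ndufaf7 came to 0.684-fold in E4 and 0.962-fold in E3. The cause was not tested, and the setting leaves fewer UMIs per gene and fewer cells. Without the shared barcodes, a setting chosen after seeing the data, no summed ratio changed sign. No paired analysis was possible because each genotype had 1 library. Counting error is the only error that these libraries allow to be estimated, and the spread between mice is unknown. For Ndufaf5 and Ndufaf6 the depth leaves wide intervals in most classes.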
